A study of Mus musculus with 2 samples.

Results

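Coding exons carry the sequence that is translated into protein, and 1691 regions of DNase-accessible chromatin had their midpoint inside one of them in the mouse urinary bladder. They were autosomal peaks of replicate 1 that shared 1 bp or more with a replicate 2 peak, lay with their midpoint in the coding part of an exon of a protein-coding gene, and were more than 1 kb from every annotated start of a protein-coding transcript. They made up 2.06% of the 82258 autosomal peaks shared by both animals, which came from lists of 117773 and 102671 peaks. The rule used position and presence in both lists, and no peak height. The tissue came from 2 female B6CASTF1/J mice aged 36 days, a first-generation hybrid of C57BL/6J and CAST/EiJ, which the labels number 5 and 6 and which are called replicate 1 and replicate 2. Each animal gave 1 DNase-seq library, an assay in which nuclei are lightly digested with deoxyribonuclease I so that cut ends pile up over open DNA. With a single untreated group and no control, nothing could be tested between groups, and every comparison below is a description. The spread is that between 2 animals, and SD values over them are written with n = 2.

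The deposited lists give each peak a height, a signal that the authors computed from that animal's reads. All heights were whole multiples of a smallest unit, 0.00789 for replicate 1 and 0.00849 for replicate 2. Their scaling is not stated. If it is reads per M, the units correspond to 127 M and 118 M reads. Whole bladder is a mixture of urothelium, smooth muscle, connective tissue, vessels, nerves and leukocytes. In such bulk tissue, fewer cells with an open site and less opening per cell cannot be told apart.

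Exons are mostly covered by nucleosomes, yet some hold binding sites for transcription factors within the codons themselves. Such sequence serves the genetic code and a regulatory code at the same time, and exons that act as enhancers of neighbouring genes have been described in limb and other developing tissues. Open exonic sites can also be internal promoters, binding sites of the insulator protein CTCF, or the downstream edge of a CpG island, a stretch of unmethylated, CpG-dense DNA around a gene start.

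The sequences below show accessible DNA at members that recur in the results. All are from the plus strand of mm10 (RefSeq GRCm38.p6), in lower case, and capitals mark consensus matches that overlapped a footprint, a short stretch protected from cutting, by at least 50% of their length in both animals. Angptl6 (chr9:20878345-20878480, wholly within its first coding exon, cropped around the match) holds the NRF1 consensus and is the highest member. Inpp5b (chr4:124751421-124751640) holds 3 copies of the NF-Y box CCAAT and 1 TEAD element GGAATG, most of them on the minus strand. Spi1 (chr2:91115161-91115320) lies in the last coding exon and holds the YY1 element AAGATGGC.

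Angptl6: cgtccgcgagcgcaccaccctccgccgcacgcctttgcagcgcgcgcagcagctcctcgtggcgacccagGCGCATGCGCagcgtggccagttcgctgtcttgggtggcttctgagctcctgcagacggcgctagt

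Inpp5b: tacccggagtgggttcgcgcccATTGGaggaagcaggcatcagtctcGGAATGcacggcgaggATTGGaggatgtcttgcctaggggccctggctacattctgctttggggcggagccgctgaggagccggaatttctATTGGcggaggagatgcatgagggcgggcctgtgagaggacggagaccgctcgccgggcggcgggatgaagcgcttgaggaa

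Spi1: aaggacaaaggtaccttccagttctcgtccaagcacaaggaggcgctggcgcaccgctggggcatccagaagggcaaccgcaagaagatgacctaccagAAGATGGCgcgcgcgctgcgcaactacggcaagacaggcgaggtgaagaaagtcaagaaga

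The next 4 hold the CTCF core, the centre of the binding motif of CTCF, and are shown because this motif had the highest excess in open coding bases. They are Rasip1 (chr7:45628841-45629060), Tpbgl (chr7:99625861-99626040), Synpo2l (chr14:20661101-20661220, with an NF-Y box as the first capitals) and Dst (chr1:34218421-34218620, where the coding exon ends within the peak).

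Rasip1: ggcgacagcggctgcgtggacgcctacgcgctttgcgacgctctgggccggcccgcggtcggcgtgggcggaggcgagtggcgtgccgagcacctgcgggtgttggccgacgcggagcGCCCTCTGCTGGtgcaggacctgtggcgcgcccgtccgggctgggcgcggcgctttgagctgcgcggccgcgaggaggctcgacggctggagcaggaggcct

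Tpbgl: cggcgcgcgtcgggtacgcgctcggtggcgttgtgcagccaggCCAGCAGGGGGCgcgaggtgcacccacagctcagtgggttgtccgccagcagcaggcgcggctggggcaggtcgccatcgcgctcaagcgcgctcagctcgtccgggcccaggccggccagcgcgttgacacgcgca

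Synpo2l: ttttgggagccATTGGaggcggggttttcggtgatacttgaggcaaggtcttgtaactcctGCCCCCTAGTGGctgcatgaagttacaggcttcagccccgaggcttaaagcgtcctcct

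Dst: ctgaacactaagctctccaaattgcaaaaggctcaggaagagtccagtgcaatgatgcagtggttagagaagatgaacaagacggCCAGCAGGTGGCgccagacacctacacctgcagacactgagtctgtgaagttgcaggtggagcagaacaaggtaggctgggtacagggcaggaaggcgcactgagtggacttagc

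The last 2 are members at genes of bladder epithelium and fibroblasts. Pparg (chr6:115463001-115463240) holds an NF-Y box, which lies upstream of the coding bases in the peak, as its coding exon starts at 115463086. Col6a3 (chr1:90779181-90779400) holds the E-box CAGCTG.

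Pparg: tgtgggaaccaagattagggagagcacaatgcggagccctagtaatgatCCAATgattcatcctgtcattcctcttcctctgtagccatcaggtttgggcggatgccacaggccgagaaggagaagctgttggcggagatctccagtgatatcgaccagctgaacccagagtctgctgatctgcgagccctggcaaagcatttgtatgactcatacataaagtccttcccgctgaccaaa

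Col6a3: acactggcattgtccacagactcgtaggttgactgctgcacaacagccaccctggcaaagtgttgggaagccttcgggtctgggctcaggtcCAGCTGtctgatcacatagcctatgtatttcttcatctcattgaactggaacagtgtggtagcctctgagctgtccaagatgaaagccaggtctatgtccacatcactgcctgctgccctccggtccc

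Coding sequence was more densely occupied by shared peaks than introns were. Of the autosomal coding bases more than 1 kb from a start, 28.3 Mb in all, each Mb held 59.7 members. The same count was 40.8 per Mb in untranslated parts of exons, 29.9 in introns, 29.3 in noncoding genes and 20.3 between genes, and 373 within 1 kb of a start. The coding density was thus 2.00 times that of introns. Introns hold more repeats, with 71.3% of their bases not masked as repeats compared with 95.4% of coding bases. Over unmasked bases the densities were 61.4 and 38.9 per Mb, a ratio of 1.58. Coding sequence was also richer in GC, at 51.3% against 42.5% of bases in introns, and the part of base composition in the density was not tested.

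Density was highest near the start of genes in each class. Between 1 and 2 kb from a start, coding sequence held 157 members per Mb and introns 72.0. The values were 68.0 and 39.5 between 2 and 5 kb, 51.0 and 34.0 between 5 and 10 kb, 44.9 and 32.3 between 10 and 50 kb, and 45.2 and 19.8 beyond 50 kb. Coding sequence had the higher value in all 5 ranges, and 379 members lay between 1 and 2 kb, 542 between 10 and 50 kb and 159 farther away. At the edge of the rule, the 131 members between 1 and 1.25 kb had median heights of 0.845 and 0.892 in replicates 1 and 2, and the 222 shared coding peaks just inside, at 0.75 to 1 kb, had 0.900 and 0.951.

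**Figure D1:**
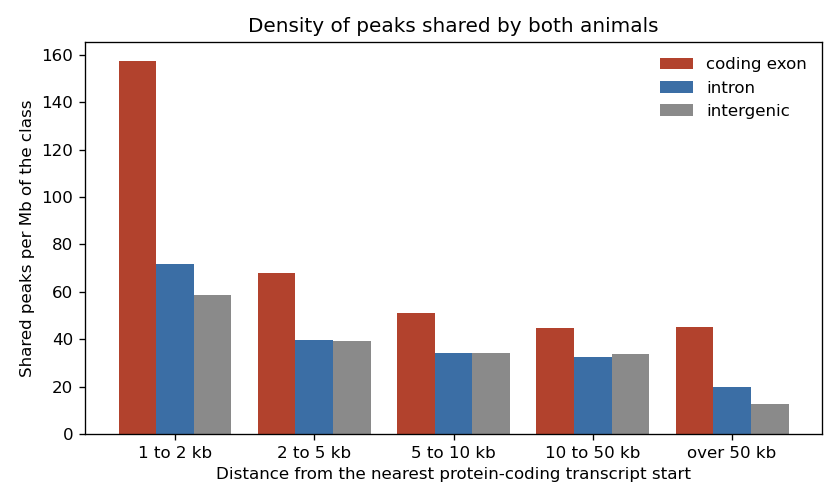
Shared peaks per Mb (vertical axis) in coding exons, introns and intergenic DNA, in 5 ranges of distance from the nearest start of a protein-coding transcript (horizontal axis). Bars are counts from the pair of animals and carry no error. Coding exons stand highest in every range, from 157 per Mb at 1 to 2 kb to 45.2 beyond 50 kb.

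Members were most dense at the ends of coding regions and least dense in internal exons. First coding exons held 163 members, or 143 per Mb of their coding sequence, and single coding exons, those of genes whose whole protein is encoded in 1 exon, held 157 (132 per Mb). Last coding exons held 428 (93.0 per Mb). Internal exons held 943, the largest number, at 45.8 per Mb. Members in first exons lay a median of 1541 bp from the nearest start and those in single exons 1536 bp, against 5981 bp for last and 12059 bp for internal exons, so exon position and distance move together. CpG-dense sequence moved with position as well. A CpG ratio (observed over expected CpG) above 0.6 was found in 72.6% of members in single exons, 62.6% in first, 48.6% in last and 22.4% in internal exons.

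Long exons were more densely occupied than short ones. Coding segments of up to 200 bp, which make up 56.9% of coding sequence, held 701 members at 44.8 per Mb. Density was 74.0 per Mb in segments over 200 and up to 500 bp, 94.8 in those over 500 and up to 1000 bp and 88.0 in those over 1000 bp. The last class held 367 members.

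**Figure D2:**
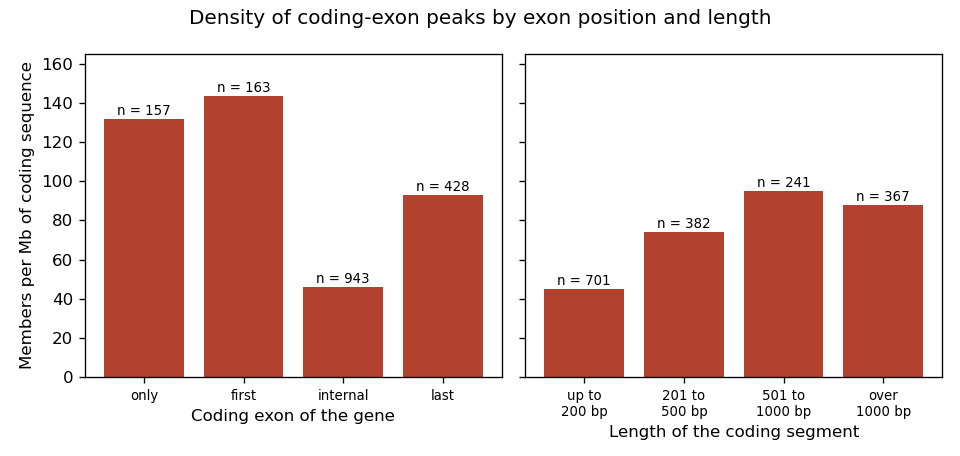
Members per Mb of coding sequence (vertical axes) by the position of the coding exon in its gene (left) and by the length of the coding segment (right), with the number of members above each bar. First exons (143 per Mb) and single exons (132) exceed internal exons (45.8), and segments up to 200 bp have the lowest density by length (44.8).

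The median member had 87.9% of its bases in coding sequence. Of the 1691, 697 were wholly coding, 693 fell within a single coding segment, 282 crossed only its upstream edge, 377 only its downstream edge and 339 both. In 1500 cases (88.7%) the midpoint of the replicate 2 partner met the coding rule too. For 10 members the bases were coding in 2 genes, and for 5 the coding sequence belonged only to a transcript marked for nonsense-mediated decay. Other starts were near some of them. The start of a noncoding or otherwise unproductive transcript lay within 1 kb of 367 members (21.7%), against 8.21% of intronic peaks. The share was 22.8% in untranslated exon parts, 25.8% in noncoding genes and 4.53% between genes. Without these 367, the count was 1324. A copy elsewhere in the genome with at least 90% identity over 80% of the length was found for 54 members (3.19%), whose reads may be shared between copies.

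Most coding-exon peaks were found in both animals. Replicate 1 had 2602 such peaks and replicate 2 had 2279, of which 64.99% and 75.2% overlapped a peak of the other animal. The shares were 66.9% and 79.4% in introns, 68.6% and 78.9% between genes, and 83.7% and 86.2% near starts. Both directions describe 1 pair of lists, so no spread between animals can be given for these shares.

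The median height of members was below that of introns in replicate 1 and above it in replicate 2. It was 0.939 in replicate 1, with quartiles of 0.616 and 1.58. In replicate 2 it was 0.807, with quartiles of 0.552 and 1.25 (mean of the 2 medians 0.873). Introns had 0.979 and 0.773, intergenic peaks 0.963 and 0.747, untranslated exon parts 1.12 and 0.892, and peaks near starts 2.31 and 1.94. The SD of the 2 medians of members was 0.094 (n = 2). The range among members was wide, from 0.205 to 16.7 in replicate 1 and from 0.178 to 8.34 in replicate 2. In the highest decile of their animal's shared peaks were 2.31% and 2.07% of members and 29.9% and 30.6% of peaks near starts. The shares were 1.59% and 1.31% in introns and 2.72% and 2.49% between genes. They were 3.56% and 3.21% in untranslated exon parts and 3.43% and 2.99% in noncoding genes. Across the 1691 members, heights of the animals had a Spearman coefficient of 0.87, a description of 1 pair of libraries. Median widths were 200 and 220 bp.

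**Figure D3:**
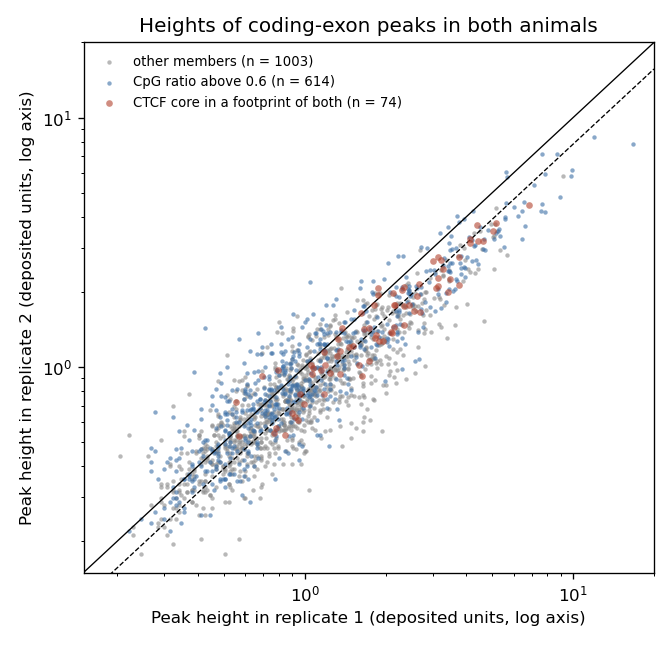
Height of each of the 1691 members in replicate 1 (horizontal) and replicate 2 (vertical), both on log axes in the deposited units. The solid line marks equal heights and the dashed line the median ratio of all shared peaks. The 74 members with a CTCF core in a footprint of both animals lie along the dashed line, and blue points are the 614 other members with a CpG ratio above 0.6. The 635 CpG-dense members in all have a median log2 difference of 0.17 relative to that line.

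Members were richer in GC and CpG than intronic peaks and poorer than peaks near starts. Their median GC content was 58.8%, against 52.5% in intronic peaks, 52.0% in intergenic peaks and 64.0% near starts. The median CpG ratio was 0.472, against 0.234 in introns and 0.752 near starts. Of the members, 635 (37.6%) had a ratio above 0.6, compared with 5.81% of intronic and 68.4% of start-proximal peaks. The CpG-dense members lay a median of 2927 bp from a start and the other 1056 a median of 10853.5 bp, so CpG density and distance moved together. Heights differed little between these groups, with medians of 0.932 and 0.892 for CpG-dense members and 0.947 and 0.764 for the rest.

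The highest member lay in the first coding exon of Angptl6, the gene of a secreted angiopoietin-like growth factor. Its peak (chr9:20878141-20878480) had a height of 16.7 in replicate 1 and 7.84 in replicate 2 (12.3 ± 6.27, SD, n = 2). Inpp5b, an inositol polyphosphate phosphatase gene, had 11.9 and 8.34 in its sixth coding exon (10.1 ± 2.54). The start of a transcript that does not count as protein-coding lay 177 bp away. Spi1, which encodes the myeloid and B cell factor PU.1, followed with 9.92 and 6.17 in its last coding exon (8.04 ± 2.66), 2903 bp from any start.

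Among the other 7 of the 10 highest members, 3 were in genes of membrane proteins. Notch4, a Notch receptor of endothelium, had 8.73 and 7.14 in exon 30 of 30 (chr17:34587481-34587720), 560 bp from a start of another transcript. Crlf2, a subunit of the receptor for thymic stromal lymphopoietin, had 9.85 and 5.82 in its first coding exon (chr5:109557541-109557720). Scnn1a, the alpha subunit of the epithelial sodium channel that carries sodium across tight epithelia, had 8.96 and 4.79 in coding exon 2 of 12 (chr6:125331081-125331260). The nearest start of any transcript was 9650 bp away there. Replicate 1 was the higher animal in all of these, as it was for most shared peaks.

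The remaining 4 were in genes of varied roles. Rsad1 (chr11:94544061-94544220) had 9.19 and 5.82, the methionine sulfoxide reductase gene Msra (chr14:64440661-64440780) 7.63 and 7.17, Ccdc194 (chr8:71521761-71521940) 7.89 and 5.93, and the proteasome ATPase gene Psmc2 (chr5:21786621-21786820) 7.15 and 5.35. The Msra peak lay 196 bp from the start of another transcript. Of these 10 highest members, 9 had a CpG ratio above 0.6, the exception being Rsad1 at 0.507. None of the 10 had a near-identical copy.

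Footprints were present in most members. A footprint was called in 1447 members in replicate 1 and 1346 in replicate 2, and 1217 (72.0%, 95% exact binomial interval 69.8 to 74.1, which covers counting error only) had at least 1 in each animal. The share was 77.4% in introns, 76.6% between genes and 78.9% near starts. In 743 members (43.9%) a footprint of one animal overlapped a footprint of the other by at least 50% of both, and 115 had none in either animal. Footprints per kb of peak were 10.03 and 8.29 in members and 11.5 and 9.13 in introns. Of the 3700 and 3755 footprints inside members, 83.6% and 81.9% had their midpoint on a coding base.

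Of the 24 motifs searched, the CTCF core had the highest density ratio between open and closed coding bases. CTCF is the zinc finger protein that anchors chromatin loops and blocks enhancers. Its core was sought on both strands, as were all motifs, and it is given by name because its consensus holds ambiguous letters. The coding bases of members, 0.291 Mb, held 74 cores or 255 per Mb, against 4.81 per Mb in the 3.33 Mb of coding bases outside peaks in the same genes (16 cores). The ratio was 52.9 (95% exact interval 30.5 to 97.3 for the counting error of both). Of the 89 cores anywhere in members, 74 (83.1%) overlapped a footprint in both animals, while footprints covered 12.7% and 9.54% of member bases.

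Members with such a footprinted core, also 74, had median heights of 1.87 and 1.43. The other 1617 had 0.916 and 0.790, but a footprint in both animals was part of the choice and went with height. The 1143 other members with a footprint in both animals had 1.10 and 0.892. The median relative difference between the animals, defined below, was -0.06 in the 74 members with a footprinted core. The highest were Synpo2l, an actin-associated protein of muscle, with 6.86 and 4.44 in its last coding exon, Tpbgl with 5.16 and 3.78 in its only coding exon (15 bp from the start of another transcript), and Rasip1, a Ras-interacting protein of endothelium, with 5.01 and 3.50 in exon 2 of 11. Dst, the gene of the plakin dystonin, had 2.69 and 1.66 in coding exon 53 of 98.

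Relative to other places, CTCF cores were not frequent in members. Within 75 bp of the midpoint, 90 members (5.32%, 4.30 to 6.50) held a core, against 7.15% of intronic, 8.87% of intergenic, 10.4% of untranslated exon and 1.15% of start-proximal peaks. Cores in the genome numbered 242 in 28.3 Mb of eligible coding sequence, 4822 in 868 Mb of introns and 5457 in 1221 Mb between genes. Of 242 cores with their place in eligible coding sequence, 78 (32.2%, 26.4 to 38.5) lay in a peak of both animals. The share was 38.4% of 4822 cores in introns (37.1 to 39.8) and 40.0% of 5457 between genes (38.7 to 41.3), so the coding interval reached into the intronic one. The coding interval lay wholly below the intergenic one. It also lay below those of untranslated exon parts, at 49.9% of 413 cores (45.0 to 54.8), and of DNA near starts, at 54.0% of 522 (49.6 to 58.4). The interval of noncoding genes, at 35.9% of 789 cores (32.5 to 39.3), overlapped it.

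The reading frame of coding CTCF cores was uneven, inside and outside peaks alike. Of the 74 coding cores in members, 44 (59.5%) ran on the strand opposite to the gene and 26 (35.1%) ran opposite with the first base of the core, in the gene's direction, at codon position 2. Outside peaks, 142 coding cores of all genes gave 62.7% and 31.7%. The order of the 6 combinations was led by the same one in both sets.

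Several other motifs differed in density between open and closed coding bases. The KLF/SP box GGGCGGG, bound by zinc finger factors of GC-rich promoters, had 111 matches and a ratio of 4.08 (3.26 to 5.09), while the GC content of open coding bases was 61.3% and that of closed ones 53.3%. The E-box CAGCTG had 447 matches and a ratio of 1.38 (1.25 to 1.53), and the E-box CACGTG 82 and 1.46 (1.14 to 1.84). The AP-1 element TGANTCA had 71 and 1.24 (0.955 to 1.58), an interval that includes 1. Lower densities in open coding bases were found for AGATAA of the GATA factors (ratio 0.374), TTTATNG of HOX13 factors (0.4997), TTCNNNGAA of STAT factors (0.607) and CCAAT of NF-Y (0.707), all of them less rich in G and C than KLF/SP. The CArG box of the muscle regulator SRF had 1 match in members and 85 outside (0.135, 0.00337 to 0.770). Base composition moved with these ratios, and its part in them was not tested. Few matches lay in a footprint of both animals: 4 of 118 for AP-1 (3.39%), 16 of 180 for KLF/SP (8.89%) and 51 of 525 for CAGCTG (9.71%). Counted per animal, replicates 1 and 2 had 12 and 11 for AP-1, 56 and 25 for KLF/SP and 120 and 81 for CAGCTG.

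Counted over the 151 bp around the midpoint, where all classes have the same length, the order was similar for the composition-rich motifs. CAGCTG was held by 336 members (19.9%) and by 16.7% of intronic peaks, and KLF/SP by 105 (6.21%), 4.82% of intronic and 30.6% of start-proximal peaks. AP-1, a motif of many enhancers, was held by 91 members (5.38%) and by 11.6% of intronic and 11.3% of intergenic peaks. The shares were 13.3% of members and 17.0% of intronic peaks for NF-Y, 6.62% and 10.6% for TEAD, 1.01% and 0.801% for YY1, 0.0591% and 0.0655% for NRF1, and 0.237% and 0.250% for REST. The density ratio of AP-1 moved from 1.24 to 1.57 among members more than 2 kb from a start and to 0.963 with all coding-exon peaks of replicate 2 in place of the shared ones, on both sides of 1.

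**Figure D4:**
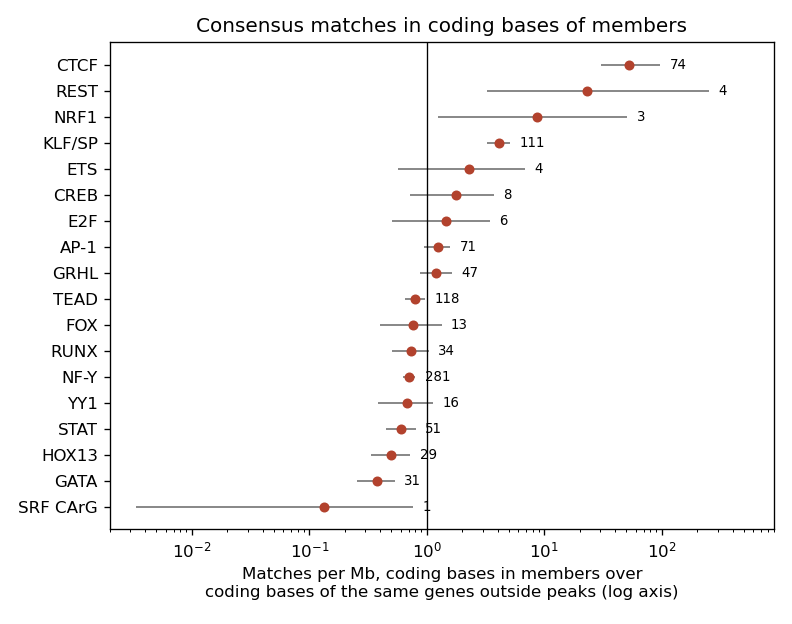
Ratio of motif matches per Mb in coding bases of members to coding bases of the same genes outside peaks (horizontal log axis), with exact 95% intervals for counting error and the number of matches in members beside each. The E-boxes and motifs without a match in members are left out. CTCF stands farthest right at 52.9 and KLF/SP at 4.08, while GATA lies at 0.374.

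The silencer element of REST, a repressor of neuronal genes in other tissues, was rare. Its consensus, a part of the longer element, matched coding bases of 4 members and 2 sites in the coding bases of the same genes outside peaks (ratio 22.9, 3.28 to 253). Of these 4 members, 3 are described here and were named after their values were seen, namely Extl3 (chr14:65059001-65059031), Gja10 (chr4:32601322-32601352) and Hes3 (chr4:152287094-152287124). Their sequences follow on the strand that carries the consensus, which is plus at Extl3 and minus at Gja10 and Hes3, with the consensus in capitals.

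Extl3: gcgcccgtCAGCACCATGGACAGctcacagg

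Gja10: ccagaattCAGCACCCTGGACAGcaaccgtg

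Hes3: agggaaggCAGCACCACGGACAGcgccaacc

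The sites of Extl3, Gja10 and Hes3 overlapped a footprint in both animals. The other of the 4 had no footprint on it in either animal and lay in a higher peak than these 3, and is not reported further. Heights were 0.955 and 0.501 at Extl3, a glycosyltransferase gene of heparan sulfate synthesis, 0.932 and 0.858 at the connexin gene Gja10, and 1.33 and 1.18 at Hes3, a basic helix-loop-helix repressor gene of neural progenitors. Of all 15 consensus matches in eligible coding sequence, 4 (26.7%) lay in peaks of both animals, against 27.0% of 244 in introns.

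Members were spread over 1443 of 18698 genes with eligible coding sequence (7.72%), of which 186 held 2 or more and 42 held 3 or more. Their overall density per gene sequence was 61.4 per Mb. Gene lists are read against these values. They were chosen with earlier results of these data known, and their genes differ in coding length, so that the counts are descriptions.

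Urothelial genes, those of the bladder's lining epithelium, held members in 6 of 28 cases (21.4%), with 195 per Mb. Pparg, the nuclear receptor that drives urothelial differentiation, had the highest, at 5.35 and 2.95 in coding exon 5 of 7 (4.15 ± 1.70, SD, n = 2). Itgb4, the integrin of hemidesmosomes, had 3.06 and 2.37 in exon 32 of 39 (chr11:116004901-116005220), and the epithelial ETS factor Elf3 had 2.65 and 1.21 (chr1:135256401-135256600). Klf5 had 1.64 and 0.603 and was among the members called lower in replicate 2. Foxa1, a forkhead factor, held 3 members in its last coding exon, the highest at 1.15 and 1.00, and the surface keratin gene Krt20 held 1 at 0.584 and 0.527. The uroplakin genes on the list, whose products coat the surface cells, held none.

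Genes of smooth muscle, the contractile cells of the bladder wall, held 1 member among 23 genes. This share of 4.35%, against 7.72% of all eligible genes, rests on 1 gene. The member was in exon 6 of 32 of Mylk, the myosin light chain kinase, at 0.655 and 0.586. Fibroblast genes held members in 3 of 22 cases (13.6%): Vim, at 2.68 and 2.95, Col6a3, with 3 members of 1.45 and 1.06 at most, and Fn1, at 1.03 and 0.323. The Vim peak (chr2:13575401-13575780) covered an exon of 61 bp, and only 16.1% of it was coding.

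Endothelial genes held members in 4 of 17 cases (23.5%). The clotting factor carrier Vwf had 3.65 and 2.26 in exon 13 of 51 (chr6:125603321-125603520), 129 bp from the start of another transcript. The diaphragm protein gene Plvap had 2.02 and 1.49, the TGF-beta co-receptor gene Eng 1.24 and 0.977, and Sox17 0.647 and 0.399. Immune genes held members in 2 of 16, Spi1 and the endotoxin co-receptor gene Cd14 (0.892 and 1.04). Nerve and glia genes did so in 3 of 14, with 3.06 and 1.67 at Gfap, an intermediate filament gene of glia. Mesothelial genes did so in 2 of 6, with 0.987 and 0.722 at Lrrn4 and 1.03 and 0.603 at Msln.

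Lists of genes of other organs differed from each other. Skeletal and heart muscle genes held 0 in 14 genes with 0.128 Mb of coding sequence, which allows a share of up to 21.4% of genes. Liver, pancreas and gut genes held members in 2 of 13 (15.4%, against 7.72% of all eligible genes), namely the apolipoprotein gene Apoa1 with 3.69 and 2.21 in its last coding exon (chr9:46229941-46230160) and the albumin gene Alb with 0.411 and 0.204.

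Among long or regulatory genes, the Hox genes of body position held members in 4 of 39 cases (10.3%), all in the second and last coding exon, which carries the homeobox. Hoxb4 had 1.86 and 1.22, Hoxa10 1.48 and 1.56, Hoxb2 1.07 and 1.63, and Hoxa7 0.797 and 0.832. All 5 members at these genes had a CpG ratio above 0.6. Of 14 large cytoskeletal genes with long coding exons, 3 held members, namely Dst, Macf1 (1.35 and 0.578) and the plectin gene Plec (0.355 and 0.357 at its highest by mean). Of 26 chromatin regulators, 4 did (15.4%), with 2.20 and 1.15 at Kmt2a, 1.26 and 0.807 at Kmt2d, 1.04 and 0.824 at Ep300 and 0.616 and 0.510 at Hivep2. Of 5 genes with an exonic enhancer known elsewhere, only the protease gene Adamts5 held members, with 1.24 and 0.985 for the higher of 2.

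Gene families differed widely in the share of their genes with a member. The highest shares among families with more than 2 eligible genes were 6 of 16 Klf genes and 6 of 16 Sox genes (37.5% each), followed by 9 of 39 myosin genes (23.1%), 8 of 43 collagen genes (18.6%), 7 of 38 Fox genes (18.4%), 7 of 41 laminin and integrin genes (17.1%), 9 of 53 keratin genes (17.0%), 2 of 12 Tbx genes (16.7%) and 13 of 97 homeobox genes (13.4%). Solute carriers, with 24 of 371 (6.47%), and zinc finger genes, with 23 of 451 (5.10%), lay near or below the share of all genes. Olfactory receptors held 0 in 273 genes, which allows up to 1.10%. Klf members had medians of 1.76 and 0.968 and Sox members 0.608 and 0.569. The highest in the former were at Klf1, a factor of red blood cell genes, with 6.03 and 4.38, and at the epithelial factor gene Klf4, with 3.35 and 1.97. Both eligible histone genes, Hist1h1d (1.01 and 1.11) and Hist1h2be (2.30 and 2.06), held a member, and 1 of the 2 had a near-identical copy.

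Some genes held many members in a row. Tchh, which encodes trichohyalin of the hair follicle, held 8 in a single exon of 4659 bp (chr3:93443393-93448051). Heights ranged from 0.276 to 2.44 in replicate 1 and from 0.459 to 2.11 in replicate 2, and all 8 had a CpG ratio above 0.6. The highest lay at chr3:93444541-93444900, with 7 and 8 footprints. The exon encodes a repetitive protein, and 1 of the 8 had a near-identical copy. Some of the 8 overlap each other or share a replicate 2 partner and are not independent regions, as is true of 39 and 92 of all members.

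Syne1, the gene of the nuclear envelope protein nesprin-1, held 6 members in 6 of its 145 coding exons. They ranged from 0.466 to 2.42 and from 0.399 to 2.17, and the nearest protein-coding start to any of them was 28369 bp away, the highest lying at chr10:5317741-5317900. Dst held 4 in 4 of 98 exons (0.734 to 2.69 and 0.442 to 1.66), and the uncharacterised gene Ccdc162 held 5 in 5 of 47 exons. In these genes the members sat in separate, mostly short exons. Cacna1a, the pore subunit of a neuronal calcium channel, held 4, of which that in its last coding exon was far the highest at 6.62 and 3.66 (chr8:84639401-84639720). That peak had a CpG ratio of 1.22 and lay 570 bp from the start of another transcript.

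Single long exons filled with low peaks were seen at protocadherin genes, which encode neural adhesion proteins. Pcdh10 held 6 members in its first exon, between 0.205 and 0.355 in replicate 1 and between 0.229 and 0.442 in replicate 2, and Pcdh17 held 4 in its first exon, up to 0.924 and 0.773. Fzd8, a Wnt receptor gene with a single exon, held 4 at up to 1.87 and 2.06. Each member at Fzd8 and some at Pcdh10 share a replicate 2 partner with another member, so they are not independent regions. Prr36 held 4 in an exon of 2196 bp, up to 2.65 and 1.41. Plin4, a lipid droplet protein gene, held 4 in an exon of 2106 bp with repeats, at 0.821 to 1.22 and 0.943 to 1.43, of which 2 had near-identical copies.

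Heights were lower in replicate 2, by a median of -0.35 on the log2 scale over all shared peaks, and differences between the animals are given relative to that median. Members lay slightly above it, with a median of 0.08, an SD of 0.44 and 57.7% of members above the overall median. Introns had a median of -0.01 and 49.5%. A difference was called when the relative change exceeded 2-fold. By that rule 42 members (2.48%) were higher in replicate 2, against 1.94% of all shared peaks, and 16 (0.946%) were lower, against 0.900%. Both shares were near those of all peaks. With the animals on their deposited scale, without the median taken off, the median of the members was -0.28, with 11 members called higher (0.651%, against 0.418% of all shared peaks) and 77 lower (4.55%, against 5.65%).

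Of the 635 CpG-dense members, 26 (4.09%) were called higher in replicate 2 and 0 lower, with a median of 0.17, while the other 1056 gave 16 and 16 with a median of 0.04. Of all shared peaks with a CpG ratio above 0.6, 3.21% were called higher and 0.181% lower, so the calls of the CpG-dense members were near the shares of such peaks in general. The median of CpG-dense peaks was 0.09 in introns, 0.01 between genes and -0.04 near starts. In 18 of the 26 the partner also touched a higher replicate 1 peak, and with the highest touching peaks compared, 14 (2.20%) were called higher and 0 lower. By GC content, the median of members went from 0.03 at up to 50% GC to 0.18 above 65%. Intronic peaks went from 0.03 to 0.06 over the same ranges with lower values between, intergenic peaks from 0.02 to -0.06 and peaks near starts from 0.18 to -0.02. With 1 library per animal, the animal and its library preparation cannot be told apart.

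**Figure D5:**
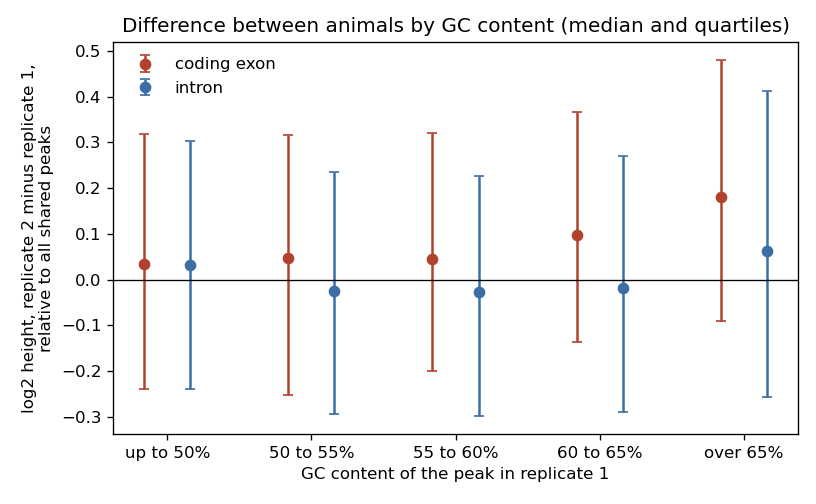
Difference in log2 height between the animals, replicate 2 minus replicate 1 and relative to all shared peaks (vertical axis), in 5 ranges of GC content (horizontal axis) for coding-exon and intronic peaks. Points are medians and bars the quartiles across peaks. In the highest range the medians are 0.18 for coding exons and 0.06 for introns, with wide overlap of the quartiles.

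The members called higher in replicate 2 were narrow in replicate 1. The 42 had median widths of 103 bp in replicate 1 and 510 bp in replicate 2, and 18 of them were under 100 bp wide in replicate 1, a class that held 119 members in all. In 25 of the 42 the replicate 2 partner also touched another replicate 1 peak that was higher than the member. When the highest peaks touching each other were compared, 24 members (1.42%) were called higher, against 1.18% of all shared peaks, and 16 lower (0.946% against 0.872%). Only 19 were called higher both ways. With an overlap of at least 50% of both peaks, 7 of 1250 were higher (0.560%).

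The largest rise was at Tbx18, a T-box factor gene of ureteric and bladder mesenchyme, from 0.426 to 1.43, or 2.10 on the relative log2 scale. The peak was 53 bp wide in replicate 1 and its partner 1100 bp in replicate 2. Next were the giant cadherin gene Fat4 (1.65), the receptor gene Pth2r (1.63), Tchh (1.62) and the four-jointed homologue gene Fjx1 (1.54). Of these 5, only Pth2r was still called with the highest touching peaks, at 0.221 and 0.535 (1.64). Esr1, the estrogen receptor gene, Isl2 and Meis1 were among the 19 called both ways and were named after their values were seen.

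The members lower in replicate 2 had similar median widths in both animals, 210 and 190 bp, and none was CpG-dense. Widths of single pairs varied, with 180 bp in both animals at Stag1 and 220 and 72 bp at Fn1. Stag1, a cohesin subunit gene, fell by 1.45 on the relative log2 scale, from 1.93 to 0.552 (chr9:100951581-100951760). Fn1, the fibronectin gene, fell by 1.33, from 1.03 to 0.323. The kinase gene Pik3c2b fell by 1.25, from 4.64 to 1.53 (chr1:133090741-133090920), Rp1l1 by 1.23 and the phosphatase subunit gene Ppp4r1 by 1.17. Klf5 fell by 1.09.

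The 5 widest members ranged in height from the lowest quartile of members (Mex3b, Plec) to above the replicate 2 upper quartile (Hoxb2). Fjx1, in its only exon, held a peak of 1300 bp with heights of 0.655 and 0.866. The RNA-binding protein gene Mex3b held one of 1166 bp (0.474 and 0.450), Plec one of 979 bp (0.339 and 0.323), the axon guidance gene Ntn1 one of 940 bp (0.616 and 0.781) and Hoxb2 one of 920 bp (1.07 and 1.63). Their CpG ratios ran from 0.568 at Plec, the only one of the 5 not above 0.6, to 1.03 at Ntn1. All except Plec were between 1028 and 1610 bp from a protein-coding start, and Plec lay 14692 bp from the nearest.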

How the data were processed

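DNase-seq peaks and footprints of urinary bladder from 2 mice, 1 library each, were analysed from the deposited lists on mm10, called in each animal separately per the file headers. For the aligner, the caller, its threshold and the scaling of heights, nothing was given in the sources used here. Each animal has a pair of peak lists, and the longer was used (117773 and 102671 peaks). The signal per peak is the height the authors deposited, and all heights (100%) were whole multiples of a fixed step. Footprints carry a false discovery rate of 0.01, and the deposited cut-rate lists give a p-value type false discovery rate up to 0.05. The reads of a first-generation hybrid were placed on a genome of 1 parent, and the effect on CAST/EiJ alleles was not tested.

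Members, gene lists and rules were chosen with earlier results of these data known. Autosomal peaks overlapping by at least 1 bp were paired by the longest overlap and classed by the midpoint of the replicate 1 peak in GENCODE M21, and densities divide by eligible bases of the class. Differences are log2 of replicate 2 over replicate 1, centred on the median of all shared peaks, and called beyond 2-fold. Both animals form 1 group, so no test was made. Intervals are exact 95% binomial or, for ratios of densities, exact conditional intervals, and cover counting error only. Consensus matches of 24 motifs were sought on both strands of RefSeq GRCm38.p6, and a match was placed in a footprint when 50% of it was covered. A copy is a blastn 2.17.0 hit of 90% identity that spans 80% of the peak.

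Genes were named by rule: the 10 highest members by mean height, the 10 genes with most members, the 5 most raised and 5 most lowered in replicate 2, the 5 widest, the highest member of up to 4 genes of each list, and the 3 highest with a footprinted CTCF core. Sequences are shown for some of these. Other names, among them Krt20, Foxa1, the REST sites, the histone genes, Klf1, Klf4 and Esr1, Isl2 and Meis1, came after values were seen. Alternatives covered the smaller peak list, overlap and height thresholds, the coding rule, distance from starts, leaving out each animal, window, centring, copies and pairing. The tools were bedtools 2.31.1 and Python 3.11.15 with pysam 0.24.0, scipy 1.17.1, pandas 2.3.3, matplotlib 3.10.9 and numpy 2.4.6. The scripts were tested on simulated data. Some named genes and sequences are not reported here.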

Additional observations from a re-analysis of the deposited data

How the results depend on the processing

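No paired analysis was possible because both animals belong to 1 group. Heights rest on 2 libraries of unstated scaling, and members overlapping each other or sharing a partner are not independent. With the smaller peak lists the number of members fell to 918, at 32.4 per Mb, with median heights of 1.41 and 1.13 in replicates 1 and 2, a footprint of both animals in 83.8%, 59.9% GC, a CpG ratio of 0.513, a CTCF core in 7.63% and 1.63% called higher. The higher 50% of peaks gave 806 members, 28.5 per Mb, heights of 1.62 and 1.27, and 89.6%, 60%, 0.501 and 8.19% for the same 4 shares, with 1.24% higher and 0.372% lower. An overlap of 50% of both peaks gave a height of 1.06 in replicate 1, footprints in 80.6%, 58.3% GC, a CpG ratio of 0.443, a CTCF core in 6.72% and 0.560% higher. Footprints overlapping by 50% were in 43.9%. Requiring 50% coding bases gave 59.2% GC and a CpG ratio of 0.490. Beyond 2 kb from starts, 53.1% lay above the median difference, 1.75% were higher, GC was 57.8%, the CpG ratio 0.426, and the ratios of AP-1 and CAGCTG 1.57 and 1.53. More than 1 kb from any start, GC was 58.3% and the CpG ratio 0.450. Without centring, 25.9% lay above 0, 0.651% were higher and 4.55% lower, and the median difference turned to -0.28. Within 75 bp of the midpoint the CTCF ratio was 74.3. Alternatives chosen after seeing the data gave a CpG ratio of 0.476 without copies and 1.42% higher with the highest touching peaks. Leaving out 1 animal, which drops the requirement of sharing, gave 2279 to 2602 members, 80.5 to 91.9 per Mb, a height of 0.718 in replicate 1 alone and 0.671 in replicate 2 alone, footprints in 70.6% to 75.8%, 58.3% to 58.6% GC, CpG ratios of 0.455 to 0.477, a CTCF core in 3.77% to 4.04%, CTCF ratios of 40.4 to 44.1 and AP-1 ratios of 0.963 to 1.31. The causes of these moves were not tested.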
